A study of Mus musculus with 8 samples.

Results

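The 10 genes described here are keratins, vimentin, desmin and lamins, the intermediate filament genes Krt7, Krt8, Krt15, Krt18, Krt19, Vim, Des, Lmna, Lmnb1 and Lmnb2. They were chosen by name, and all 10 were found among the 43346 gene identifiers counted. Their mRNA abundance was measured by RNA-Seq in notochord-derived cells (NDCs) of Shh-cre;ROSA:YFP mice, in which Cre driven by the sonic hedgehog gene (Shh) switches on a yellow fluorescent protein (YFP) in notochord cells and their descendants. Shh is also active in the floor plate of the neural tube and in gut endoderm, so the reporter alone does not single out the notochord. The 4 litters at embryonic day 12.5 (E12.5), a stage at which the notochord is still a rod, were NDP10.2, NPD3, NPD4 and NPD9.2. The 4 litters at postnatal day 0 (P0), when its cells fill the nucleus pulposus (NP) of the disc, were NPD26, NPD27, NPD28 and NPD30. Every group carried the same reporter genotype, neither received a treatment, and each sample pooled the animals of a litter. Notochords at E12.5 were dissected and put into TRIzol without sorting, whereas NP cells at P0 were shaken loose, strained and sorted for YFP. Stage and isolation method therefore cannot be told apart, and no non-notochordal tissue was sequenced as a control.

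Intermediate filaments are rope-like polymers that give cells and nuclei mechanical strength. Keratins assemble only as pairs, with a type II keratin (here Krt7 and Krt8) joined to a type I keratin (here Krt15, Krt18 and Krt19). Vimentin and desmin are type III proteins that can polymerize alone, the former typical of mesenchymal cells and the latter of muscle. The lamins line the inner face of the nuclear envelope, with the A-type lamins from Lmna and the B-type lamins from Lmnb1 and Lmnb2. Notochordal cells are unusual in holding keratin and vimentin filaments together, and KRT8, KRT18 and KRT19 are used as markers of the notochordal phenotype in the disc.

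Reads counted on genes numbered 4442775 to 7180221 per litter at E12.5 and 6371842 to 8904050 at P0, so that 3 counts, taken as the lowest signal that could be told from none, equalled 0.337 to 0.675 CPM (counts scaled to the size of the library), a floor for counting error alone. In the E12.5 litters NDP10.2 and NPD9.2, 16.3% and 17.5% of all reads fell on overlapping genes and were left uncounted, against 7.07% to 11.6% in the other 6 litters. The label was checked with 7 notochord genes, of which 6 were tested. T (Brachyury), the transcription factor that defines the notochord, measured 242 to 942 CPM at E12.5 and 574 to 2323 CPM at P0 and did not pass the test (log2 fold change 1.18, adjusted p = 0.117 by edgeR). Cd24a, a surface protein of notochordal cells, was higher at P0 (457 to 875 and 956 to 2854 CPM), while Shh (420.3 to 1348 and 0.16 to 11.8 CPM) and the transcription factor Foxa1 (69.996 to 239 and 18.6 to 52.3 CPM) were lower. Sox9 (431 to 782 and 128 to 524 CPM) and Foxa2 (4.84 to 17.2 and 1.59 to 9.70 CPM) did not pass, and Noto had 0 to 3 reads per litter. Markers of other cells were also present: the summed level of 10 leukocyte genes was 61.1 to 119 CPM at E12.5, 3005 to 3847 CPM in NPD26, NPD27 and NPD28, and 319.9 CPM in NPD30. The summed level of 8 erythroid genes was larger still at E12.5, at 24675, 9816, 10195 and 48925 CPM in the litters as named above. At P0 it was 363 to 1247 CPM. NPD30 also had the highest T, and results that rest on it are given with and without it.

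The members lie in several places of the mouse genome (Gencode M21 gene models on GRCm38, all protein coding). Krt8 (chromosome 15, 101996698 to 102004482, minus strand) and Krt18 (chromosome 15, 102028180 to 102032027, plus strand) point away from each other across 23697 bases that hold 0 other protein-coding genes, although they encode keratins of different types. Krt7 (chromosome 15, 101411043 to 101430313, plus strand) is in the same type II cluster, with 25 protein-coding genes between it and Krt8. The type I genes Krt15 (chromosome 11, 100131758 to 100135928, minus strand) and Krt19 (chromosome 11, 100140810 to 100148665, minus strand) are direct neighbours with a gap of 4881 bases. Vim is at chromosome 2, 13573927 to 13582826, plus strand, and Des at chromosome 1, 75360329 to 75368579, plus strand. Lmna occupies chromosome 3, 88480147 to 88509956, minus strand, and Lmnb2 chromosome 10, 80901203 to 80918245, minus strand.

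Krt8 and Krt18 share a neighbourhood and a filament while their ratio differed between the stages, and Vim was the member with the most reads, so the promoter windows of these 3 genes are shown. Each runs from 250 bases before to 50 bases after the RefSeq start on GRCm38.p6, written 5′ to 3′ on the strand of the gene. Capitals mark TATAAA (the TATA box) or CCAAT (the CCAAT box) on either strand. The Krt8 window is chr15:102004293-102004592 (minus strand), the Krt18 window chr15:102027966-102028265 (plus strand) and the Vim window chr2:13574061-13574360 (plus strand).
Krt8: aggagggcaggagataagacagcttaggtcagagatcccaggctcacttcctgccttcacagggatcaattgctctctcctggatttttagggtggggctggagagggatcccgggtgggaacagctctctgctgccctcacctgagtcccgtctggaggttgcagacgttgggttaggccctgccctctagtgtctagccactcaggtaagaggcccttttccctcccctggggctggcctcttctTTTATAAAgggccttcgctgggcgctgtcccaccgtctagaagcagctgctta
Krt18: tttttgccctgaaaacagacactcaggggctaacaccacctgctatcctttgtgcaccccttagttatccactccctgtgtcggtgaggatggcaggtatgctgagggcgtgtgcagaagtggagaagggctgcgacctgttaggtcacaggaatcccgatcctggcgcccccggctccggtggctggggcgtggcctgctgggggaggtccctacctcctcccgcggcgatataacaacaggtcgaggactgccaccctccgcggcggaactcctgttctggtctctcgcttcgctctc
Vim: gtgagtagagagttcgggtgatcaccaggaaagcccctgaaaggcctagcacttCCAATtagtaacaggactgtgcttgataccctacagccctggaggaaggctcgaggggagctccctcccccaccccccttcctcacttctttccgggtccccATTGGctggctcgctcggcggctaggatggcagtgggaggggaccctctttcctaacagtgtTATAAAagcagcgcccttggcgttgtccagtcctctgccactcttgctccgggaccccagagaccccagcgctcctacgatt
The 5 motifs were searched on both strands, and 7 of the 10 members had a window, in 9 windows. TATAAA is in 13.6% of all 32851 RefSeq promoters of this length, and among the members it is in the Krt8 window, where the copies on the 2 strands overlap, and in the Vim window. CCAAT is in 37.4% of all promoters, and is found 2 times in Vim and 1 time in a Lmna window. The GC box GGGCGG, in 35.7% of all promoters, is in windows of Des, Krt7, Lmna and Lmnb2. The AP-1 site TGANTCA, in 7.81% of all promoters, is in a Lmna window, and the T-box site AGGTGTGA, in 1.28% of all promoters, is in 0 of the 9. The Krt18 window holds none of these letters. A match here is a description of the letters and not a binding site.

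All 10 members passed the filter on low counts and were tested with edgeR's quasi-likelihood F-test over the 15467 genes that passed, and p-values were corrected for the number of genes after Benjamini and Hochberg. At an adjusted p under 0.05, 6 of the 10 differed between the stages, against 27.9% of all genes tested. Krt19, Vim and Lmna had higher mRNA abundance at P0 (3 of 10, against 16% of all genes), and Krt15, Des and Lmnb1 had lower abundance (3 of 10, against 12%). Krt7, Krt8, Krt18 and Lmnb2 did not pass. The median log2 fold change of the members was -0.31, against 0.04 over all genes tested, and the litters of the stages did not overlap for 5 members (Krt15, Vim, Des, Lmna and Lmnb2), against 29.9% of all genes tested. With so few genes, a count of 6 says little about the family. CPM in every value that follows uses library sizes normalized by the TMM method of edgeR, litters are given in the order in which they are named above, and log2 fold changes compare P0 with E12.5 and carry their standard error.

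**Figure D1:**
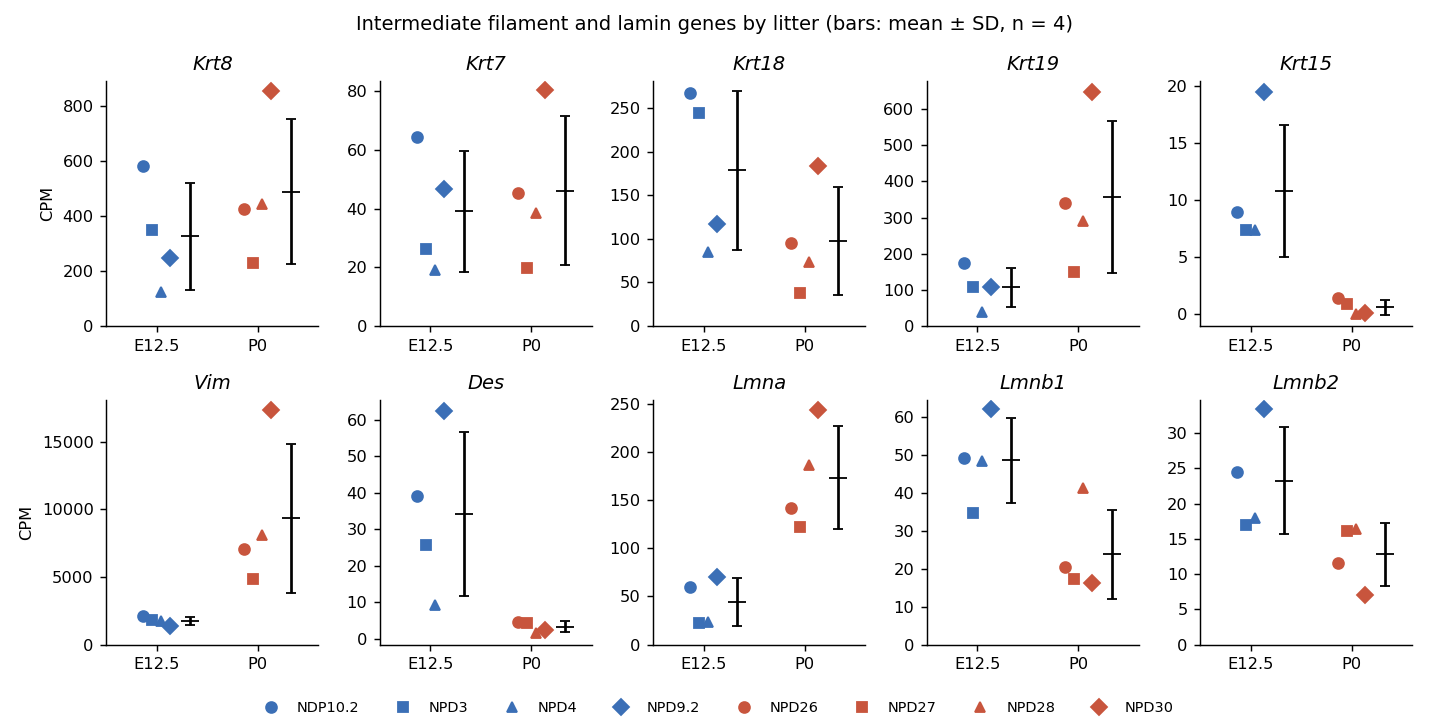
CPM (vertical axes, linear, a different range for each gene) of the 10 member genes in the 4 litters at E12.5 (blue) and the 4 at P0 (red), with the mean ± SD of each stage as a black bar. The P0 litters of Vim and Lmna lie above all E12.5 litters, those of Krt15, Des and Lmnb2 lie below them, and NPD30 (red diamond) is the highest litter for Krt7, Krt8, Krt19, Vim and Lmna.

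Among the type II keratins, Krt8 is the main partner of Krt18 and Krt19 in simple epithelia and in notochordal cells. Its level was 584, 349, 123 and 248 CPM at E12.5 and 427, 227, 443 and 854 CPM at P0. The stages overlapped, with the lowest litter (NPD4) at E12.5 and the highest (NPD30) at P0. The means were 326 ± 195 CPM and 488 ± 263 CPM (SD, n = 4), and the log2 fold change of 0.58 ± 0.50 did not pass (adjusted p = 0.419). Without single litters it ranged from 0.13 to 0.98. On simulated data over all genes tested, the same test found 43 of 100 genes changed by 1.5 on the log2 scale, and 91 of 100 changed by 3. Those genes were drawn at any level of abundance, and far fewer were changed than the 27.9% called in the data. The shares therefore do not give the power of the test for Krt8. The count of Krt8 is also uncertain. Of the 1958 bases of its transcript, 1015 (51.8%) are matched at 95% identity or more by the pseudogene Krt8-ps and the non-coding gene Gm36026. Neither had a row in the counts used here. Gm36026 overlaps the Krt8 locus by 271 bases on the opposite strand, so part of this match may be the same sequence and not a second copy.

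Krt7, a type II keratin of ductal and simple epithelia, measured 64.4, 26.1, 19.1 and 46.7 CPM at E12.5 and 45.4, 19.6, 38.6 and 80.4 CPM at P0. The ranges nearly coincided. The log2 fold change was 0.24 ± 0.47 (adjusted p = 0.743), and its sign turned to -0.21 when NPD30 was left out. On the scale of CPM per kb of exon, Krt7 made up 2.04% to 4.97% of the type II keratin mRNA (Krt7 plus Krt8) at E12.5 and 2.34% to 2.87% at P0, so that Krt8 supplied nearly all of it at either stage.

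Among the type I keratins, Krt18 pairs with Krt8 in the earliest epithelia of the embryo. It measured 267, 244.5, 84.9 and 117 CPM at E12.5 and 95.3, 37.9, 73.0 and 183 CPM at P0. The stages overlapped: of the P0 litters, NPD30 lay above NPD4 and NPD9.2, and NPD26 lay between them. The means were 178 ± 90.9 and 97.3 ± 61.8 CPM (SD, n = 4), and the log2 fold change of -0.87 ± 0.50 did not pass (adjusted p = 0.225). NPD30 decided this value: without it the log2 fold change was -1.41 with an adjusted p of 0.0390 by edgeR. With NPD30 as the only P0 litter the log2 fold change was 0.09.

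Krt19, the smallest keratin, which lacks most of the tail domain and can take the place of Krt18 beside Krt8, went the other way. It measured 173, 107, 39.8 and 108 CPM at E12.5 and 339.7, 149, 289.8 and 647 CPM at P0. The stages overlapped only in that NPD27 at P0 lay below NDP10.2 at E12.5. The means were 107 ± 54.6 and 356 ± 210.1 CPM (SD, n = 4), and the abundance was 3.33-fold higher at P0 (log2 fold change 1.74 ± 0.50, adjusted p = 0.0267). The call did not survive every choice of litters. The test was passed without NDP10.2, NPD4, NPD27 or NPD28, and was lost without NPD3 (1.71, adjusted p = 0.0710), NPD9.2 (1.71, adjusted p = 0.0700), NPD26 (1.77, adjusted p = 0.0507) or NPD30 (1.25, adjusted p = 0.0566). It was also lost without both NDP10.2 and NPD9.2 (2.25, adjusted p = 0.0663) and with no filter on low counts (1.77, adjusted p = 0.0630).

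Krt15, a type I keratin of the basal layer of stratified epithelia, measured 8.96, 7.42, 7.37 and 19.4 CPM at E12.5 and 1.42, 0.87, 0.00 and 0.15 CPM at P0. At P0 these were 9, 6, 0 and 1 reads, so NPD28 and NPD30 lay under the floor of 3 counts. The stages did not overlap, and the abundance was 17.7-fold lower at P0 by the fit (log2 fold change -4.15 ± 0.83, adjusted p = 0.0041). All 8 fits without a litter kept the call. Krt5 and Krt14, the keratin pair of basal epidermal cells, were also lower at P0, as were most markers of surface and gut epithelium. Like Krt15, both keratins passed the filter on their E12.5 reads and lay under the floor in NPD28 and NPD30. The sizes of these keratin changes are therefore uncertain. Krt5 was 12.7 to 49.2 CPM at E12.5 and 0.00 to 0.79 CPM at P0 (log2 fold change -5.80 ± 0.80, adjusted p = 0.00073 by edgeR), and Krt14 5.46 to 22.9 and 0.00 to 2.36 CPM (-4.10 ± 1.02, adjusted p = 0.0134 by edgeR). The summed level of 8 epithelial markers was 56.8 to 120.2 CPM at E12.5 and 6.47 to 18.5 CPM at P0, with 5 of the 6 tested lower and none of the list at 0 in all P0 litters. Trp63, the transcription factor of the basal layer, was 12.1 to 20.5 and 0.24 to 4.04 CPM. The highest litter for Krt15, Krt5 and this sum was NPD9.2. The part of other epithelia in the Krt15 result was not tested. In pooled tissue, fewer cells of a type and less RNA per cell cannot be told apart.

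**Figure D2:**
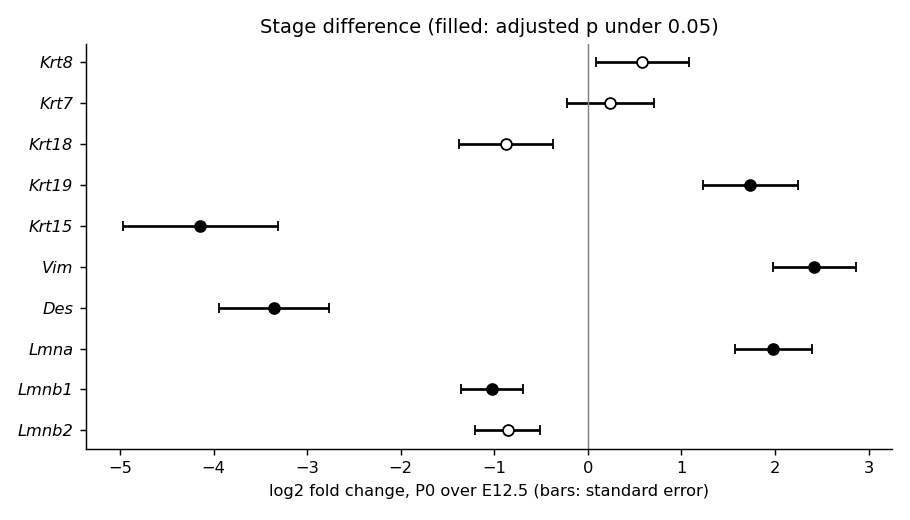
Log2 fold change of P0 over E12.5 (horizontal axis) for the 10 member genes, with bars of 1 standard error from the edgeR fit. Filled points (Krt19, Krt15, Vim, Des, Lmna and Lmnb1) had an adjusted p under 0.05, and Krt7, Krt8, Krt18 and Lmnb2 (open points) did not.

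The keratins were then compared as ratios of 2 genes within a library, which no choice of library scaling can change. The Krt8 to Krt18 ratio of read counts was 2.18, 1.43, 1.45 and 2.12 at E12.5 and 4.48, 6.00, 6.07 and 4.67 at P0. No litters overlapped, although neither gene passed the test by itself. The mean log2 ratio rose from 0.82 ± 0.34 to 2.39 ± 0.23 (SD, n = 4), a 2.99-fold difference (exact permutation test, two-sided, p = 0.0286, and 0.0286 after adjustment over the 4 ratios tested), which is the smallest p that 4 against 4 litters allow. The count of Krt8 may leave out reads shared with the pseudogene Krt8-ps, so the level of this ratio is less certain than its difference between the stages. The litters NDP10.2 and NPD9.2 had more uncounted overlapping reads and the highest erythroid sums. They had the higher values at E12.5 for this ratio and for Krt19 to Krt18 and Lmna to Lmnb1. The part of those reads or of erythroid cells was not tested.

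The ratio of the type I keratins Krt19 to Krt18 was 0.65, 0.44, 0.47 and 0.92 at E12.5 and 3.56, 3.92, 3.97 and 3.54 at P0. The ratio was below 1 in every E12.5 litter and above 1 in every P0 litter. The difference was 6.33-fold (exact permutation test, two-sided, p = 0.0286 before and after adjustment, the smallest possible). At P0 the highest ratio was only 1.12 times the lowest, while Krt19 itself varied 4.36-fold and Krt18 4.83-fold across the same litters. NPD30, which decided the call of Krt18 on its own, had a ratio like the other P0 litters, and the log2 difference stayed between 2.52 and 2.87 over the 8 fits without a litter. Neither keratin had a near-identical copy in the transcript annotation.

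On the scale of CPM per kb of exon, where levels of different genes can be set side by side, Krt19 supplied 24.8% to 38.6% of the type I keratin mRNA at E12.5 and 73.2% to 75.5% at P0. Krt18 supplied 54.1% to 73.4% and 24.5% to 26.7%, and Krt15 1.78% to 7.30% and 0.00% to 0.46%. The total of type II over type I keratin mRNA was 1.08, 0.78, 0.78 and 0.89 at E12.5 and 0.90, 1.11, 1.12 and 0.94 at P0, ranges that overlapped while the type I shares did not. With the longest coding transcript in place of the exon union as length, this ratio was 0.76 to 1.04 and 0.81 to 1.004, and the Krt19 share 28.0% to 42.4% and 76.2% to 78.4%. The summed keratin level was 150.3 to 592 CPM per kb at E12.5 and 226 to 924 CPM per kb at P0.

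**Figure D3:**
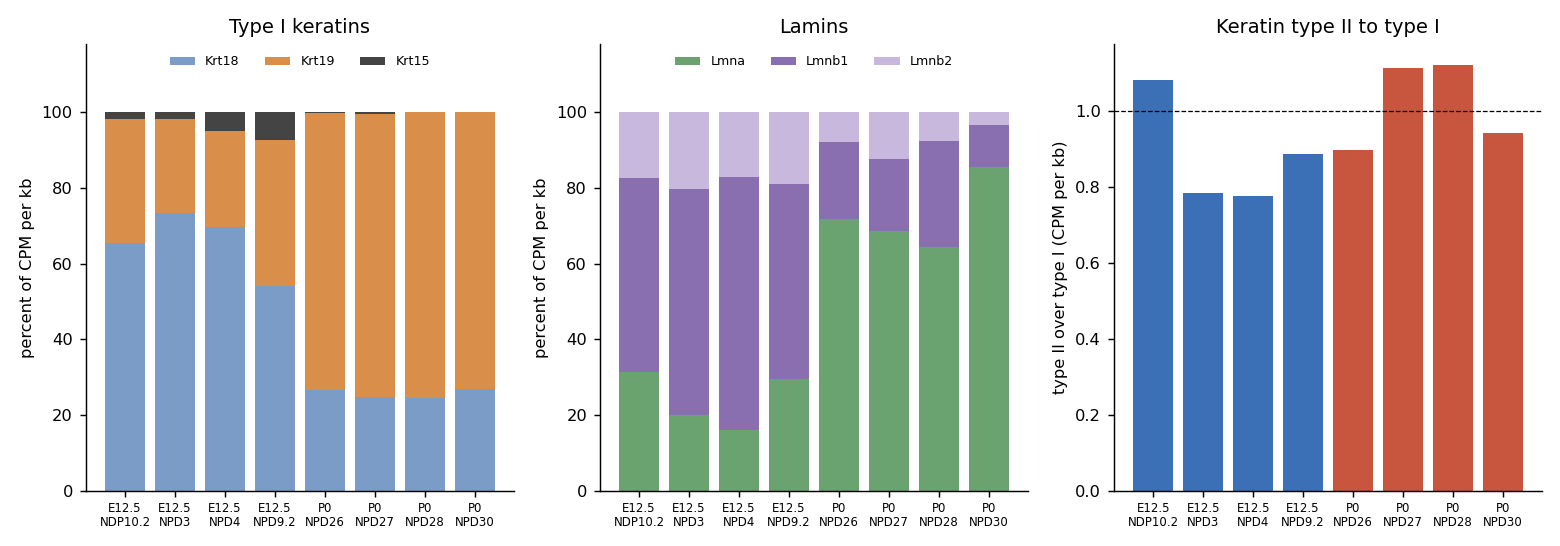
Left and middle, percent of the type I keratin and of the lamin mRNA (CPM per kb of exon) supplied by each gene in each litter. Right, the ratio of type II (Krt7 plus Krt8) to type I keratin level, with a dashed line at 1. Krt19 rises from at most 38.6% to at least 73.2% of type I and Lmna from at most 31.5% to at least 64.3% of the lamins, while the type II to type I ratio stays between 0.775 and 1.12 in the 8 litters.

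Vim, the vimentin gene, was among the most abundant mRNAs of these cells. It measured 2081, 1786, 1717 and 1385 CPM at E12.5 and 7069, 4848, 8102 and 17309 CPM at P0. The stages did not overlap, and the E12.5 litters lay close together, while the P0 litters spanned 3.57-fold with NPD30 highest. The means were 1742 ± 286 and 9332 ± 5488 CPM (SD, n = 4), 5.36-fold higher at P0 (log2 fold change 2.42 ± 0.44, adjusted p = 0.0027), and the call held in all 8 fits without a litter (1.90 to 2.65). As a share of all reads on genes, Vim took 0.127% to 0.198% before birth and 0.486% to 1.73% at P0.

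Vimentin is also abundant in leukocytes and mesenchymal cells, and the marker levels of both changed with the stage. Leukocyte markers were higher at P0 in 10 of 10 genes. The P0 litter with the lowest sum of these 10 genes (NPD30, 319.9 CPM) had the highest Vim. NPD30 as the only P0 litter gave a log2 fold change of 3.35, and leaving it out gave 1.90. Sclerotome markers, from the mesenchyme around the notochord, were lower at P0 in 6 of 6 genes, with a sum of 124.8 to 173 CPM at E12.5 and 6.00 to 18.7 CPM at P0. Osteoblast markers were higher in 5 of 5 genes tested (30.7 to 248 and 1065 to 1827 CPM), with the highest sum in NPD30. Neutrophil markers, which are not in the leukocyte list, were higher in 6 of 6 tested. Their sum was 4.01 to 15.8 CPM at E12.5 and 688, 724, 5917 and 887 CPM at P0, so NPD30 was not the lowest. The part of leukocytes, osteoblasts and other cells in the Vim result was not tested.

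The Vim to Krt8 ratio of read counts was 3.57, 5.13, 13.9 and 5.58 at E12.5 and 16.6, 21.3, 18.3 and 20.3 at P0. NPD4 lay close to the P0 litters and no litters overlapped. The difference was 3.10-fold (exact permutation test, two-sided, p = 0.0286 before and after adjustment). At P0 the highest ratio was 1.29 times the lowest, against 3.91 times at E12.5, and without NPD4 the log2 difference was 2.03 in place of 1.63. NPD4 differed in some neural genes: the neuronal tubulin Tubb3 was 576 CPM there against 23.2 to 43.5 CPM in the other E12.5 litters. Its neural tube marker sum was 894 against 53.9 to 103.5 CPM, most of it from Tubb3 and the neuronal gene Elavl3 (289 CPM). Of the rest of that list, Sox2 was highest in NPD4 among the E12.5 litters, Pax6 was lowest there, and Nkx6-1 and Olig2 were not raised. The T level of NPD4 was the lowest of all. Per kb of exon, Vim was 0.742 to 2.41 times the summed keratins at E12.5 and 3.14 to 4.53 times at P0, or 1.54 to 5.01 and 6.30 to 9.13 times with the longest coding transcript as length, where the ranges of the stages were likewise apart.

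The level of T differed by litter in much the same way as those of the keratins, so the ratios to T were computed after the values were seen, with no test. Krt8 to T was 0.62, 0.44, 0.51 and 0.69 at E12.5 and 0.42, 0.40, 0.32 and 0.37 at P0. Krt18 to T was 0.28 to 0.35 in the E12.5 litters and 0.053 to 0.095 in the P0 litters, ranges further apart than those of Krt18 in CPM, which overlapped. Krt19 to T was 0.14 to 0.30 and 0.21 to 0.34, which overlapped. Vim to T was 2.21 to 7.11 and 5.91 to 8.45. Relative to T, both Krt8 and Krt18 were lower in every P0 litter than in any E12.5 litter, whereas the level of Krt8 in CPM had a mean that was higher at P0. These ratios rest on T alone, and Shh and Foxa1 of the same list were lower at P0.

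**Figure D4:**
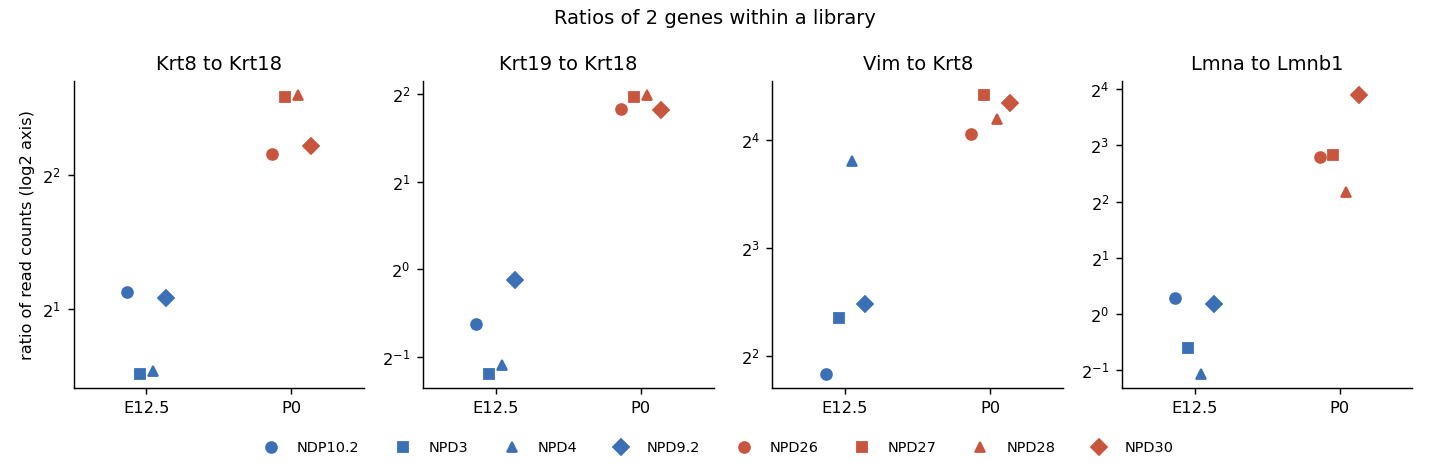
Ratio of read counts of 2 genes within each library (vertical axes, log2 scale) in the 4 litters at E12.5 (blue) and at P0 (red). The litters of the stages are apart for Krt8 to Krt18, Krt19 to Krt18, Vim to Krt8 and Lmna to Lmnb1, and the P0 litters lie within 1.12 times of each other for Krt19 to Krt18.

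Des encodes desmin, the intermediate filament of skeletal, cardiac and smooth muscle. It measured 39.2, 25.8, 9.19 and 62.5 CPM at E12.5 and 4.72, 4.47, 1.53 and 2.58 CPM at P0. The stages did not overlap, and the highest P0 litter lay under the lowest E12.5 litter, NPD4. The means were 34.1 ± 22.5 and 3.32 ± 1.53 CPM (SD, n = 4), lower at P0 (log2 fold change -3.36 ± 0.59, adjusted p = 0.0024), with the call kept in all 8 fits without a litter. With NPD30 as the only P0 litter the log2 fold change was -3.64.

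Skeletal muscle markers moved with Des. Their summed level over 10 genes was 1845, 1394, 613 and 2671 CPM in the E12.5 litters, the same order from high to low as Des (NPD9.2, NDP10.2, NPD3, NPD4), and 123, 191, 49.4 and 66.1 CPM at P0. Of the 8 tested, 6 were lower at P0. The muscle regulators Myog and Myod1 were 9.79 to 53.6 and 6.77 to 51.4 CPM at E12.5 and 0.30 to 1.89 and 0.45 to 1.42 CPM at P0, while Ckm, a marker of mature muscle, was 0.00 to 0.20 and 0.59 to 1.26 CPM. The smooth muscle and pericyte list summed to 303, 216, 149.7 and 385 CPM in the E12.5 litters, which is also the order of Des. At P0 it summed to 144.0 to 423 CPM, and of its 7 genes tested 2 were higher and 2 lower. The part of either kind of muscle cell or of pericytes in the Des result was not tested.

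**Figure D5:**
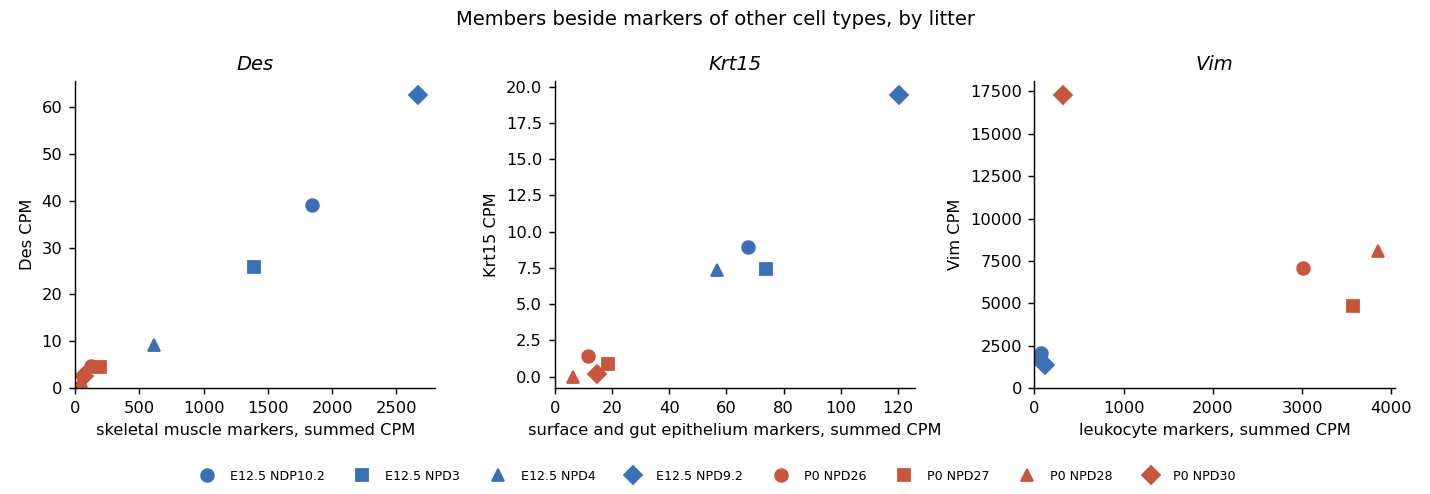
CPM of Des, Krt15 and Vim (vertical axes) against the summed CPM of the marker list of another cell type (horizontal axes) in each litter. Des falls in the same order as the skeletal muscle sum in the E12.5 litters. NPD30 (red diamond) has the highest Vim with 319.9 CPM summed over the 10 leukocyte markers, a list that holds no gene of the neutrophil list.

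Among the lamins, Lmna encodes lamin A and lamin C, which stiffen the nucleus and are known to increase as tissues mature. Its level was 59.9, 22.8, 23.0 and 70.6 CPM at E12.5 and 142, 122, 187 and 244 CPM at P0. Every P0 litter lay above every E12.5 litter. The means were 44.1 ± 24.8 and 173.7 ± 53.9 CPM (SD, n = 4), 3.95-fold higher at P0 (log2 fold change 1.98 ± 0.42, adjusted p = 0.0053 by edgeR). The call held in all 8 fits without a litter (1.73 to 2.27). With NPD30 as the only P0 litter the log2 fold change was 2.53. The E12.5 litters fell into a lower pair and a higher pair, the latter being NDP10.2 and NPD9.2. Without that higher pair the log2 fold change was 2.89 with an adjusted p of 0.0077 by edgeR.

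Lmnb1, a B-type lamin that stays anchored to the membrane and is high in dividing cells (chromosome 18, 56707813 to 56753424, plus strand), measured 49.3, 34.7, 48.4 and 62.2 CPM at E12.5 and 20.4, 17.3, 41.3 and 16.4 CPM at P0. A single P0 litter, NPD28, lay within the E12.5 range, above NPD3. The means were 48.7 ± 11.2 and 23.9 ± 11.8 CPM (SD, n = 4), 2.03-fold lower at P0 (log2 fold change -1.02 ± 0.33, adjusted p = 0.0398). This was the member closest to the threshold, and the call was kept only in the fits without NPD3 (-1.20, adjusted p = 0.0346) or NPD28 (-1.42, adjusted p = 0.0048). It was lost without NDP10.2 (-1.06), NPD4 (-1.03), NPD9.2 (-0.92), NPD26 (-0.95), NPD27 (-0.89) or NPD30 (-0.92), where the adjusted p was 0.0570 to 0.105. Of 10 cycling cell genes, 0 were called by edgeR or by limma-voom, with 2 at an unadjusted p under 0.05 in each, and DESeq2 called 2. Their summed level was 818 to 1208 CPM at E12.5 and 668 to 1799 CPM at P0, highest in NPD28.

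Lmnb2, the other B-type lamin gene, measured 24.5, 17.0, 18.0 and 33.4 CPM at E12.5 and 11.6, 16.2, 16.4 and 6.97 CPM at P0. The stages did not overlap, but the gap between NPD28 and NPD3 was small against the spread, and the log2 fold change of -0.86 ± 0.35 did not pass (adjusted p = 0.0887). It passed with upper quartile scaling (-1.02, adjusted p = 0.0406), which moves the median of all genes by -0.14. A stretch of 103 bases of its transcript recurs at 95% identity or more in 62 other genes, so a small part of its reads could be shared.

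The Lmna to Lmnb1 ratio of read counts was 1.22, 0.66, 0.48 and 1.13 at E12.5 and 6.94, 7.08, 4.52 and 14.9 at P0. It was lowest in NPD28 and highest in NPD30 among the P0 litters, and no litters overlapped. The difference was 9.36-fold (exact permutation test, two-sided, p = 0.0286 before and after adjustment), the largest of the 4 ratios tested. Per kb of exon, Lmna supplied 16.1% to 31.5% of the lamin mRNA at E12.5 and 64.3% to 85.4% at P0, or 24.8% to 43.9% and 75.6% to 90.9% with the longest coding transcript as length. Lmnb1 supplied 51.0% to 66.7% and 11.3% to 28.0%, and Lmnb2 17.2% to 20.2% and 3.33% to 12.3%.

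Other genes of the filament and lamina system were read from the same fit in 6 lists with 59 genes, of which 45 were tested. At an adjusted p under 0.05, 12 were higher and 5 lower at P0, which is 37.8% of those tested against 27.9% of all genes. Where at least 10 counts were required in every sample, 9 of 34 were called, against 3063 of 11719 over all genes, which are similar shares. Of the 17 other keratins, only 7 were tested, with Krt80 and Krt20 higher and Krt5 and Krt14 lower. Krt80, a type II keratin, was 0.00 to 1.42 CPM at E12.5 and 32.4 to 127 CPM at P0 (log2 fold change 6.60 ± 0.80, adjusted p = 0.00048 by edgeR). At E12.5 these were 6, 7, 0 and 1 reads, with NPD4 and NPD9.2 under the floor of 3 counts. Krt80 passed the filter on its P0 reads, so the size of its change is uncertain. Krt20, a type I keratin of the gut lining, had 0 or 1 read in each E12.5 litter, under the floor of 3 counts, and 16 to 24 reads in each P0 litter. It passed the filter on its P0 reads (adjusted p = 0.0022 by edgeR), so the size of its change is not given.

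Of the 10 other type III and type IV filament genes, 8 were tested, with Prph, Nefh and Gfap higher and Nes lower. Prph, the type III protein peripherin, was 4.48, 5.46, 103.6 and 12.05 CPM at E12.5 and 141.5 to 367 CPM at P0 (log2 fold change 3.004 ± 0.94, adjusted p = 0.0378 by edgeR). NPD4, the E12.5 litter with the highest Tubb3, stood above the other 3. The Prph call was kept only in the fit without NPD4, and was lost in the other 7 (2.62 to 3.21, adjusted p = 0.0529 to 0.103), which left out NDP10.2, NPD3, NPD9.2 or 1 of the P0 litters. Nefh, a neurofilament subunit, was 0.71 to 6.89 CPM at E12.5 and 20.3 ± 9.65 CPM in the P0 litters (2.80 ± 0.63, adjusted p = 0.0079 by edgeR). Nefh passed the filter on its P0 reads and lay near the floor in NDP10.2 and NPD3 (0.71 and 1.17 CPM), so the size of its change is uncertain. Nefl, at 558 CPM in NPD4 and 17.5 to 39.3 CPM in the other E12.5 litters, was not called. Gfap had 7, 1, 0 and 1 reads at E12.5 and passed the filter on its P0 reads, so the size of its change is uncertain. The Gfap call was lost in the fits without NPD3, NPD9.2 or NPD26 (2.72 to 3.03, adjusted p = 0.0746 to 0.0834). Nes, the nestin gene of progenitor cells, whose protein copolymerizes with vimentin, was 67.5 to 160.6 CPM at E12.5 and 2.00 to 11.8 CPM at P0 (-4.36 ± 0.58, adjusted p = 0.00070 by edgeR), opposite to Vim.

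Filament linkers tie filaments to junctions and to the rest of the cytoskeleton. Of 9 tested, Dst, Dsp and Pkp1 were higher and Ppl lower. Dsp, the desmosomal plakin desmoplakin, was 47.7 ± 20.9 and 202 ± 161.8 CPM (log2 fold change 2.09 ± 0.60, adjusted p = 0.0264 by edgeR). Pkp1, the desmosomal plakophilin, was 2.38 ± 1.83 and 50.4 ± 35.0 CPM (4.43 ± 0.72, adjusted p = 0.0018 by edgeR). Pkp1 passed the filter on its P0 reads and lay under the floor of 3 counts in NDP10.2 (0.47 CPM), so the size of its change is uncertain. Dst, which encodes dystonin, was 82.3 to 106 CPM at E12.5 and 120.8 CPM or more at P0 (1.15 ± 0.37, adjusted p = 0.0383). The litters of the stages overlapped for Dsp. The Dsp call was lost in 5 of the 8 fits without a litter, those without NDP10.2, NPD3, NPD4, NPD28 or NPD30 (1.42 to 2.08, adjusted p = 0.0540 to 0.0672). The Dst call was lost in 6, those without 1 of the E12.5 litters, NPD28 or NPD30 (0.60 to 1.18, adjusted p = 0.0587 to 0.109). Ppl, the periplakin of epithelial cells, was 6.65 to 20.7 and 0.94 to 3.17 CPM (-3.02 ± 0.53, adjusted p = 0.0023 by edgeR). Ppl passed the filter on its E12.5 reads, so the size of its change is uncertain. Plec, which encodes plectin, the linker shared by keratin and vimentin filaments, was 127 ± 46.5 and 185 ± 88.5 CPM and did not pass (adjusted p = 0.323).

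The 12 lamina partners, proteins of the inner and outer nuclear membrane and of chromatin, were all tested, and 9 were not called. Syne1 and Syne3 were higher and Syne2 lower at P0. These encode nesprins, which span the outer nuclear membrane and connect the nucleus to the cytoskeleton. Syne1 was 19.5 ± 3.73 and 139.9 ± 90.6 CPM (log2 fold change 2.84 ± 0.47, adjusted p = 0.0019 by edgeR) and Syne2 220.5 ± 24.7 and 68.9 ± 34.9 CPM (-1.68 ± 0.35, adjusted p = 0.0052 by edgeR), and the litters of the stages did not overlap for either. The Syne3 call was lost in 5 of the 8 fits without a litter, those without NDP10.2, NPD4, NPD9.2, NPD27 or NPD28 (1.39 to 1.62, adjusted p = 0.0710 to 0.0974). Lbr, which encodes the lamin B receptor, was 49.0 ± 14.2 and 102.5 ± 91.8 CPM (1.06 ± 0.51, adjusted p = 0.153 by edgeR), with a sign opposite to that of Lmnb1. Most of this difference came from NPD28 (238.8 CPM). The other P0 litters had 41.8 to 73.8 CPM, against 34.0 to 68.1 CPM at E12.5.

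Of the 5 enzymes that process prelamin A, only Zmpste24, the protease that makes the final cut, was called, at 43.5 ± 5.57 and 71.3 ± 14.3 CPM (log2 fold change 0.71 ± 0.22, adjusted p = 0.0336 by edgeR). It passed in the fits without NPD3 or NPD27 and was lost in the other 6 (0.57 to 0.75, adjusted p = 0.0547 to 0.106), which left out NDP10.2, NPD4, NPD9.2, NPD26, NPD28 or NPD30. Of the 4 chaperones that keep filaments from clumping, Hspb8 was called, at 15.03 ± 7.22 and 56.1 ± 21.2 CPM (1.90 ± 0.38, adjusted p = 0.0039 by edgeR), and Cryab, Hspb1 and Bag3 were not.

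The genes whose pattern over the 8 litters was most like that of Krt8, Krt19, Vim and Lmnb1 were found by Pearson's r of log2 CPM among 5388 genes, as a description in which all points share their library and its stage. For Krt8 these were Arhgef16 (r = 0.98), Hspb1 (0.97) and Atp1b2 (0.97), of which Hspb1 encodes a small heat shock protein that binds filaments. For Krt19 they were Anxa2 (0.99), Ppp1r3c (0.98) and Fhl1 (0.98), and for Vim Ap1s2, Id4 and Fxyd6 (each 0.99). For Lmnb1 they were Ccar2 (0.98), Midn (0.97) and Mcm7 (0.96), the last a subunit of the replicative helicase. Among the members themselves, Krt8 and Krt7 had r = 0.85 and Krt8 and Krt19 0.89, whereas Krt8 and Krt18 had 0.53 and Krt18 and Krt19 0.13. The pair with the highest r was Krt15 and Des (0.95), which were also the members lowered most at P0.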

How the data were processed

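The 8 samples are litters, 4 of each stage. Per the labels and methods, the authors aligned single-end reads to GRCm38.p3 with STAR 2.4.0j used htseq-count with the Gencode M4 annotation, and deposited the resulting counts per gene as they were. Whether counting used strand is not given in the sources used here. Special rows (ambiguous, no feature, not unique, 65.2% to 77.4% of reads tallied) were left out of library sizes.

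Counts were analysed in R 4.3.3 with edgeR 4.0.16 (TMM, filterByExpr with a minimum count of 10 and total of 15, robust quasi-likelihood F-test, Benjamini-Hochberg adjustment over all genes tested, threshold 0.05). Log2 CPM adds a prior count of 2. Ratios within a library were compared by exact permutation tests. CPM per kb uses the Gencode M21 exon union. On simulated data 4.29% of calls were false. Alternatives were DESeq2 1.42.0, limma 3.58.1 (voom), other scalings and filters, thinning and leaving out litters. NPD30 as the only P0 litter, ratios to T and transcript lengths were chosen after the values were seen.

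Members and gene lists were chosen with earlier results of these data known. Named genes are the 10 members, up to 3 called genes in each direction per list with the largest mean CPM, and the 3 genes most like Krt8, Krt19, Vim and Lmnb1 by r among those of mean log2 CPM of at least 5. Plec, Nefl, Lbr and single markers named were chosen after their values were seen. Promoter sequences are from RefSeq on GRCm38.p6.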

Additional observations from a re-analysis of the deposited data

How the results depend on the processing

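Over the alternatives, 4 to 7 of the 10 members were called. The 4 ratios kept their direction and non-overlapping litters after thinning (adjusted p = 0.0286 by exact permutation test). Litters that are apart stay apart when any is left out, so the fits without a litter could not test this. In each of those fits the exact permutation test gave an adjusted p of 0.0571 for all 4 ratios, which is above the threshold. This is the smallest p that the test allows once a litter is left out, so no ratio could have passed. Vim, Lmna and Krt15 kept their direction and call under each alternative that could be computed (Krt15 had no value when 10 counts in every sample were required). Krt19 lost its call in 6 of 17 alternatives, Lmnb1 in 8 and Des in 1. Without both NDP10.2 and NPD9.2, 2581 genes in all and 11 of the filament and lamina genes were called, in place of 4321 and 17. With NPD30 as the only P0 litter, assumed to vary like the E12.5 litters, the counts were 1054 and 10, and with at least 10 counts in every sample 9 of those genes were called. The direction turned for Krt7 without NPD30 (-0.21, the lowest of a range up to 0.55 over the fits without a litter), where Krt7 was not called. It also turned for Krt18 with NPD30 as the only P0 litter (0.089). The cause of these differences was not tested beyond the loss of samples or genes they entail. No paired analysis was possible because the stages came from different litters, and the labels give no link between them. Depth limits what can be said of Krt15 at P0, where the litters had 0 to 9 reads, and the spread between litters limits Krt7, Krt8, Krt18 and Lmnb2 more than depth does.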
